A study of Homo sapiens with 32 samples.

Results

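The comparison set nuclear poly(A) RNA of HEK293T cells lacking IGF2BP2 against nuclear RNA of control cells. HEK293T is an established human embryonic kidney line. The members were chosen by their labels (nuclear RNA, IGF2BP2 knockout or CRISPR control), which gave 6 of the 32 libraries of the series: IGF2BP2 knockout replicates 1 and 2, prepared in batches 3 and 4, and control replicates 1 to 4, prepared in batches 1 to 4. Cells of both groups grew in DMEM and received no treatment. For the knockout, plasmids that do not integrate brought in 3 guide RNAs against IGF2BP2 together with GFP, single GFP-positive cells were sorted, and the colonies were examined for the protein. A single knockout clone was sequenced, so its libraries repeat that clone, p-values measure the spread between libraries, and an effect of losing IGF2BP2 and a property of the clone cannot be told apart. The control carried a guide with no mammalian target and was made alongside, and the labels do not say whether it is a clone or a pool. Total RNA of the same genotypes (2 knockout and 4 control libraries) and nuclear RNA of an IGF2BP3 knockout clone (2 libraries, batches 3 and 4) served for reference.

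IGF2BP2 belongs to a family of RNA-binding proteins that bind mRNAs, many of them carrying N6-methyladenosine, mostly in the cytoplasm, and affect their stability, transport and translation. A nuclear preparation holds nascent transcripts and mRNAs on their way out, and also RNAs that stay in the nucleus: long noncoding RNAs such as MALAT1 and NEAT1, precursors of microRNAs, and mRNAs held back because a so-called detained intron has not yet been spliced. Total RNA holds nuclear and cytoplasmic RNA together, so a change confined to the nuclear pool can be smaller in it.

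The 6 nuclear libraries held 13689067 counts (knockout 1) to 26093403 counts (control 2). Log2 values of the knockout libraries correlated at a Pearson r of 0.997 across genes, those of control and knockout libraries at 0.969 to 0.975. All 10 genes listed as typical of HEK293T cells reached 1 CPM in every library (CPM are counts scaled to a common library size). Of 14 markers of other cell types, 4 were at 0 in all 6 libraries, 11 stayed under 1 CPM in every library, and the summed level of all 14 was 3.82 to 5.78 CPM in control and 6.69 to 6.87 CPM in knockout libraries. The nuclear library labelled IGF2BP1 knockout 1 and the total library labelled IGF2BP1 knockout 2 held identical counts, and the IGF2BP1 knockout was therefore kept out of the comparisons and used only in an alternative.

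The targeted gene came first. IGF2BP2 (ENSG00000073792, GRCh38 chromosome 3, 185643739 to 185825056, minus strand) stood at 73.8, 70.7, 59.3 and 64.4 CPM in control nuclei 1 to 4 and at 24.7 and 22.6 CPM in knockout nuclei 1 and 2. Both knockout libraries lay below every control library, and IGF2BP2 RNA was reduced but still present. The log2 change was -1.39 ± 0.09 (standard error, SE), with an edgeR adjusted p of 1.48e-15, and the change in total RNA was -1.32. The relatives also fell in the nucleus, IGF2BP1 by 0.39 on the log2 scale (adjusted p = 6.03e-05) and IGF2BP3 by 0.44 (adjusted p = 2.69e-05), although the IGF2BP3 call was lost when deposited FPKM values were tested with limma.

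**Figure D1:**
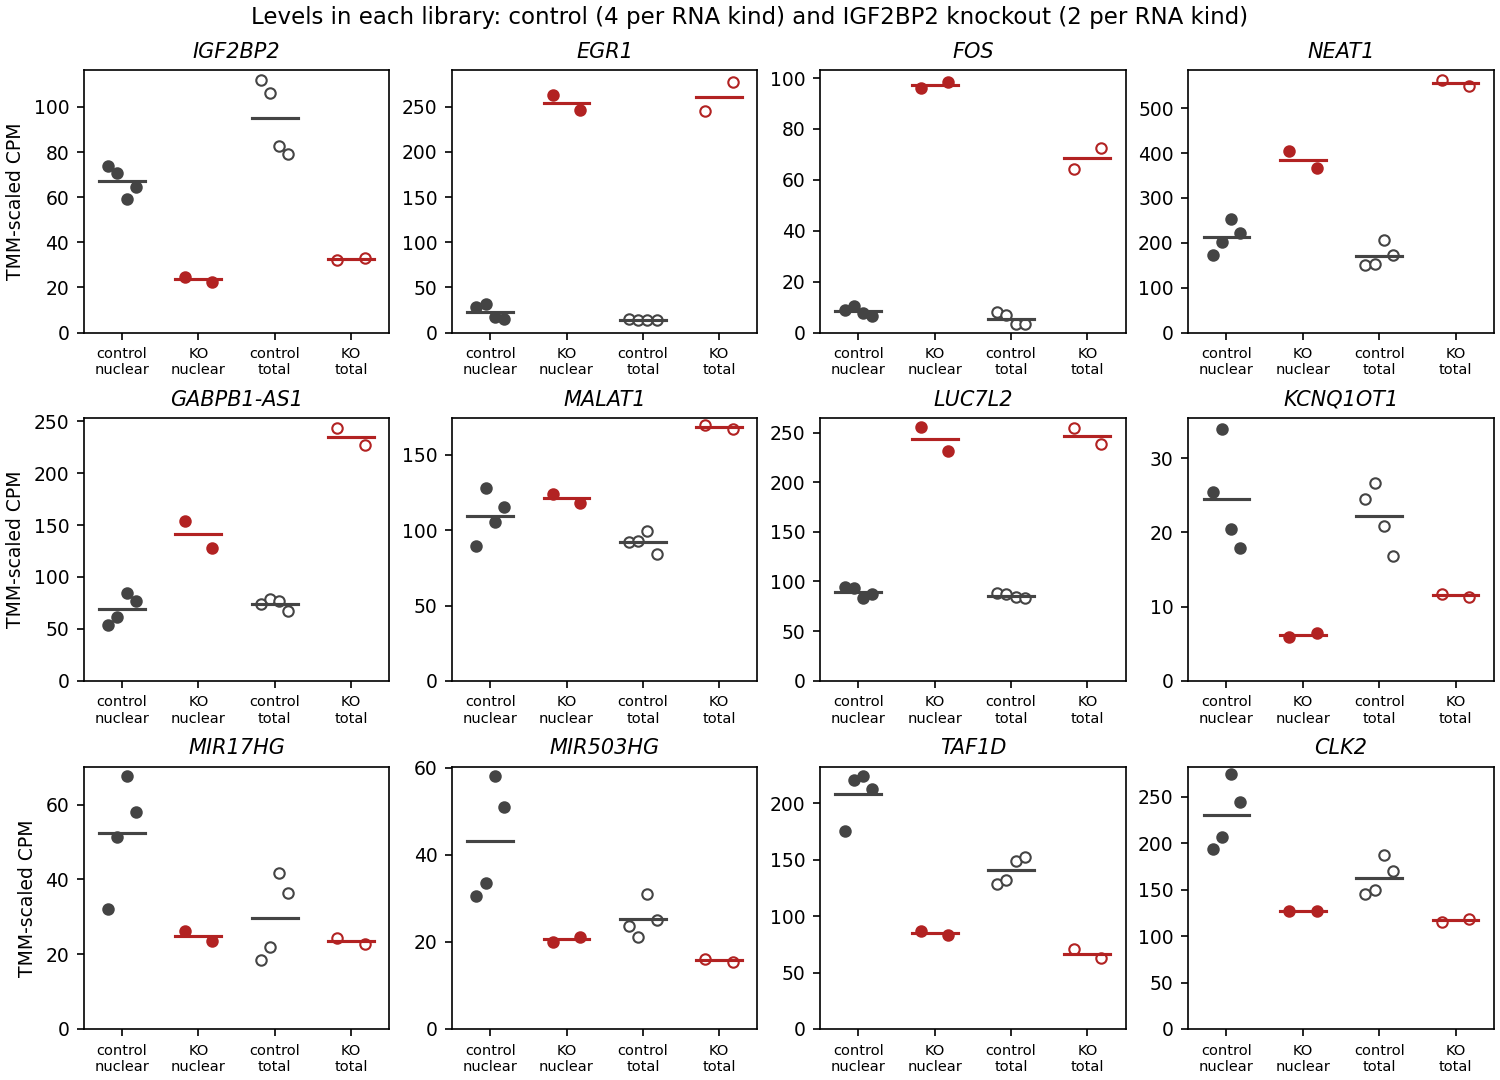
TMM-scaled CPM (y axes, from 0) of 12 genes in every control and IGF2BP2 knockout library of nuclear RNA (filled points) and total RNA (open points), with horizontal bars at the group means. EGR1 and FOS stood apart between the groups in both kinds of RNA, while MALAT1 overlapped between the groups in nuclear RNA and not in total RNA.

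Of 18486 genes tested in nuclear RNA, 5082 were higher (27.5%) and 5104 lower (27.6%) in the knockout, together 10186 or 55.1%, by edgeR's quasi-likelihood test with a batch term and a Benjamini-Hochberg adjusted p under 0.05. A gene past that threshold is referred to below as called, and as having risen or fallen. Because most genes were called, a count of called genes in any list is given with its direction and its median. Such a count in nuclear RNA is to be read against the shares of all genes, 27.5% higher and 27.6% lower. The median log2 change over all tested genes was 0.01. The log2 change was at least 1 in size for 2673 called genes, of which 1730 were higher and 943 lower. Only the libraries of batches 3 and 4 shape these fold changes and their error, since batches 1 and 2 held no IGF2BP2 knockout. In total RNA 5428 of 18613 genes were higher (29.2%) and 5634 lower (30.3%); with upper-quartile scaling, which raised the median of all genes in total RNA from 0.02 to 0.12, these became 6646 higher and 4571 lower.

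RNAs with a high nuclear over cytoplasmic ratio in control cells fell as a group in the nuclear libraries. They were defined without any knockout library, from control nuclear against control cytoplasmic RNA of batches 1 and 2, in which 9384 of 16384 genes (57.3%) were called. The 1851 RNAs with a log2 nuclear over cytoplasmic ratio of at least 1 and an adjusted p under 0.05 are termed nuclear-enriched, and 1845 of them were tested in the knockout. The term describes that ratio only. Of the 1845, 1011 were protein-coding. In knockout nuclei 877 of the 1845 were lower (47.5%), 214 were higher (11.6%) and 754 were not called, with a median log2 change of -0.45. The median was -0.50 within batch 3 and -0.37 within batch 4. In bulk RNA of this kind, fewer cells holding an RNA and less of that RNA per cell cannot be told apart.

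Total RNA showed no such fall. Of the nuclear-enriched RNAs, 570 were higher and 329 lower in total RNA, with a median of 0.12. The nuclear change was set against the total change in a single model of batches 3 and 4, in which 2701 of 19007 genes moved more upward in the nucleus than in total RNA (14.2%) and 2033 more downward (10.7%). Among the 1851 nuclear-enriched RNAs this difference was negative and called for 831 and positive for 7, with a median of -0.55. The 573 RNAs with a control ratio of at least 2 on the log2 scale had larger values, with 306 lower and 38 higher in knockout nuclei, a median of -0.66 there and 0.09 in total RNA.

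The change followed the place of an RNA in control cells over its whole range. Genes with a control ratio under -1, the cytoplasmic end, had a median change of 0.14 in nuclear RNA and -0.05 in total RNA. Genes with a ratio of 0 to 0.5 had medians of -0.08 and -0.05. At 1 to 2 the medians were -0.36 in nuclear and 0.14 in total RNA. The 197 cytoplasm-enriched RNAs mirrored the nuclear-enriched ones, with 61 higher and 31 lower in nuclear RNA and 40 against 1 in the difference from total RNA.

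**Figure D2:**
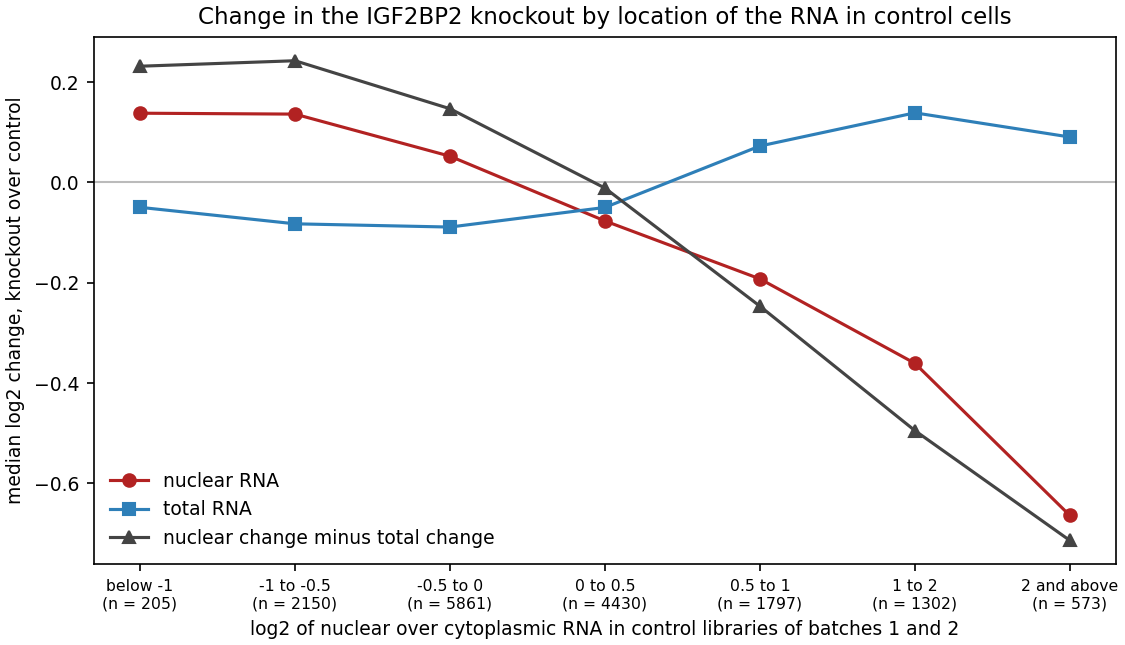
Median log2 change of knockout over control (y axis) for genes grouped by their log2 nuclear over cytoplasmic ratio in control libraries of batches 1 and 2 (x axis, number of genes under each group), in nuclear RNA, in total RNA and as the difference between the changes. The nuclear medians run from 0.14 at the cytoplasmic end to -0.66 at the nuclear end, and the total RNA medians stay between -0.09 and 0.14.

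The difference was refitted with libraries left out. Each such refit dropped a nuclear library with its total RNA partner and left 1 residual degree of freedom in place of 2. The median of the nuclear-enriched RNAs was -0.52 to -0.55 in these refits. Fewer genes were called in the difference. With all libraries 4734 genes were called in it, and refits called 2476 without control 3, 2295 without control 4 and 2581 without knockout 2. DESeq2 called 1257 of the 10163 genes to which it gave an adjusted p, and gave none to 822 of the 4734. Nuclear-enriched RNAs called lower numbered 507, 553 and 503 in those refits, and 279 by DESeq2. With the IGF2BP1 knockout libraries added, among them the one held under both labels, edgeR called 0 genes, and 3555 of 19387 had an unadjusted p under 0.05. The median of the nuclear-enriched RNAs was -0.54 in that fit. The added libraries are of batches 1 and 2, which held no IGF2BP2 knockout, so they could hardly move this median.

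Judged by the nuclear-enriched RNAs themselves, the fractions were less separated in the knockout sets. The median log2 ratio of nuclear over cytoplasmic RNA, taken over the nuclear-enriched RNAs within each batch, was 1.20, 1.35, 1.56 and 1.42 in control batches 1 to 4. The IGF2BP2 knockout sets gave 0.79 and 0.74, and those of the IGF2BP3 knockout 0.94 and 1.04. The knockout sets lay below every control set. Over total RNA the same median was 0.17, 0.35, 0.43 and 0.44 in control sets and -0.11 and -0.12 in IGF2BP2 knockout sets, so that in the knockout these RNAs were no more abundant in the nuclear libraries than in total RNA.

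**Figure D3:**
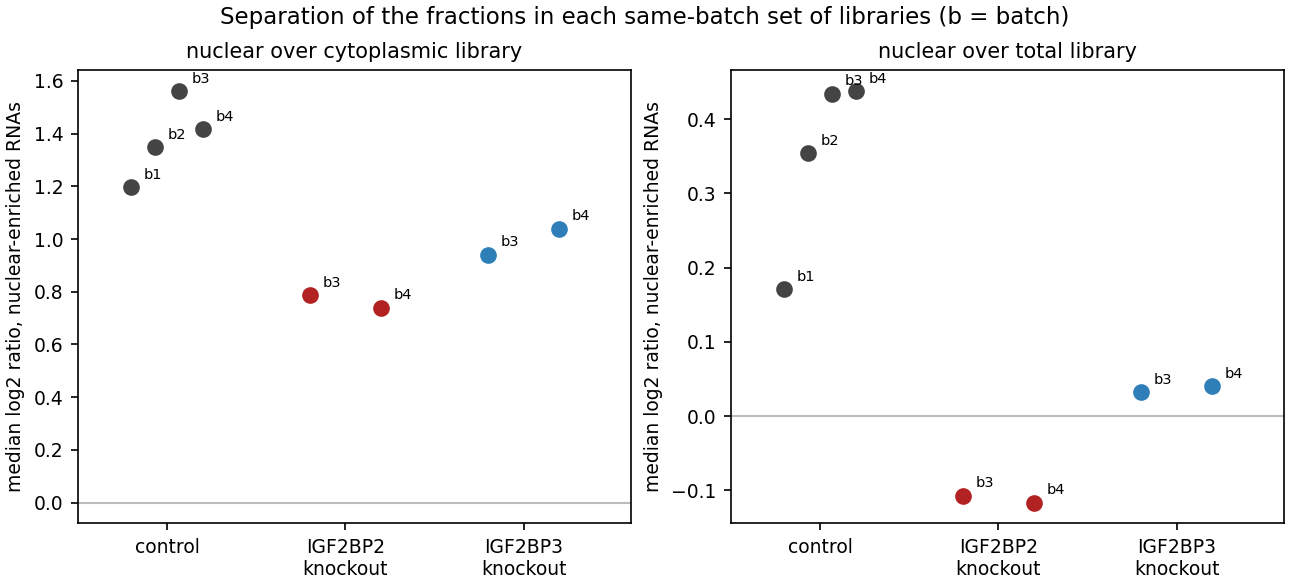
Median log2 ratio of nuclear over cytoplasmic RNA and of nuclear over total RNA (y axes) over the nuclear-enriched RNAs, a point for each same-batch set of libraries of control, IGF2BP2 knockout and IGF2BP3 knockout. All IGF2BP2 knockout sets lie below all control sets, at 0.79 and 0.74 against 1.20 to 1.56 for the ratio to cytoplasmic RNA.

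Nuclear-enriched RNAs took 6.65, 7.88, 8.93 and 8.04% of the counts of control nuclei 1 to 4 and 6.98 and 6.72% of those of knockout nuclei. The knockout libraries lay below controls 2 to 4 and level with control 1. In total RNA the share was 6.04 to 6.65% in control and 8.03 and 7.91% in knockout libraries, and in cytoplasmic RNA 2.05 to 2.13% and 2.84 and 2.91%. The share was thus lower in the nuclear libraries of batches 3 and 4 and higher in the other kinds of RNA. By this share, control total RNA lay nearer to nuclear than to cytoplasmic RNA. Cytoplasmic mRNAs of general metabolism summed to 40597 to 45603 CPM in control and 37514 to 37989 CPM in knockout nuclei. They fell further in the other kinds of RNA. Total RNA had 44787 to 47109 CPM in control and 33316 and 32833 CPM in knockout libraries. Cytoplasmic RNA had 51916 to 57391 CPM in control and 44057 and 43591 CPM in knockout libraries. In control and knockout nuclei, listed nuclear noncoding RNAs summed to 1193 to 1684 and 1863 to 2061 CPM. There, mRNAs of secreted and membrane proteins summed to 10672 to 12468 and 10819 to 11066 CPM. Mitochondrially encoded mRNAs summed to 16899 to 20137 CPM in control and 15914 and 16825 CPM in knockout nuclei. In cytoplasmic libraries they summed to 65102 to 73610 CPM in control and to 86463 and 81845 CPM in the knockout. The median nuclear over cytoplasmic log2 ratio of cytoplasm-enriched RNAs was -0.92 to -0.65 in control and -0.56 in both IGF2BP2 knockout sets. The part of the fraction separation in the nuclear changes was not tested.

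Nuclear and total RNA were then read gene by gene, over 18057 genes tested in every comparison. Both kinds of RNA rose for 3663 genes and fell for 3741, so most called genes moved the same way. A nuclear fall without a call in total RNA was seen for 1193 genes, of which 477 were nuclear-enriched. The reverse, a rise in total RNA without a nuclear call, was seen for 1496 genes, of which 292 were nuclear-enriched. Genes with a nuclear call, no total RNA call and a called difference in the nuclear direction numbered 1193, with 562 higher (1 of them nuclear-enriched) and 631 lower (302 nuclear-enriched). Opposite calls were rare, with 94 genes higher in nuclear and lower in total RNA, none of them nuclear-enriched, and 122 the other way round, 75 of them nuclear-enriched.

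**Figure D4:**
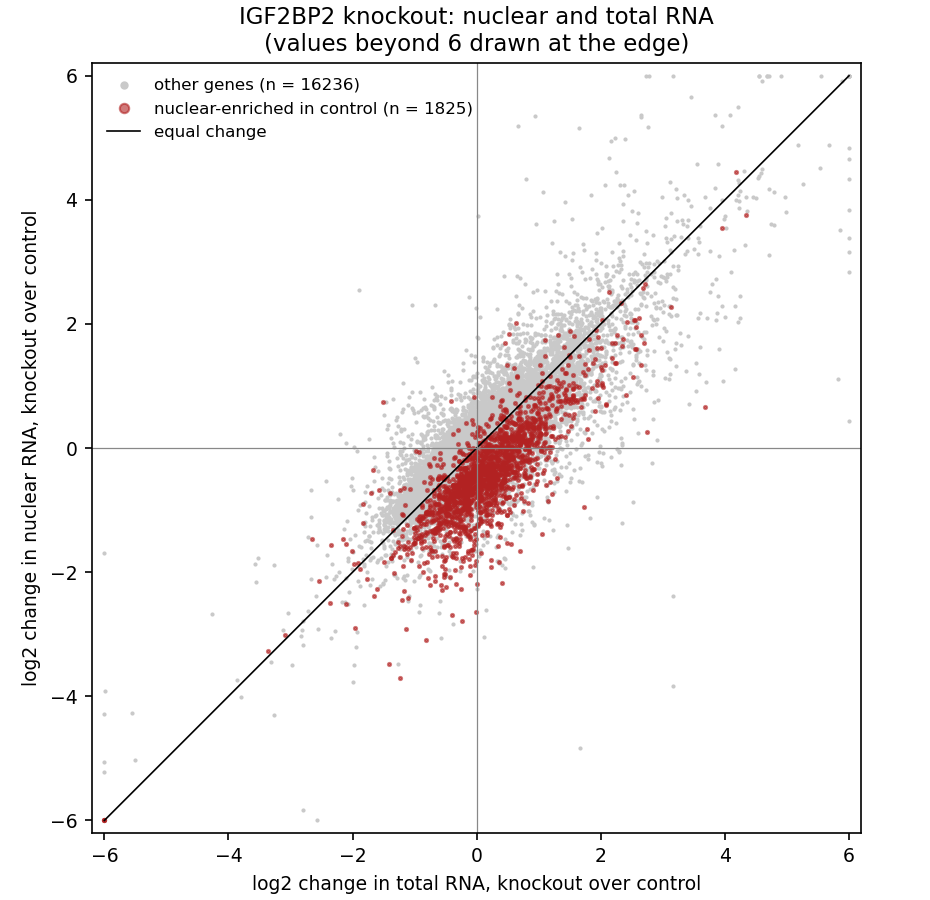
Log2 change in nuclear RNA (y axis) against log2 change in total RNA (x axis) of knockout over control, a point per gene, with the 1825 nuclear-enriched RNAs in red and the other genes in grey; values beyond 6 are drawn at the edge. Most red points lie below the line of equal change, where the nuclear change is the lower one.

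DDX39B and ANKRD36B are examples of nuclear-enriched RNAs with opposite calls; DDX39B was chosen after its values were seen. DDX39B, an RNA helicase of splicing and mRNA export (chromosome 6, 31530219 to 31542448, minus strand), had 338 to 437 CPM in control and 280 and 268 CPM in knockout nuclei. In total RNA it had 271, 265, 318 and 272 CPM in control and 358 and 368 CPM in knockout libraries. Knockout and control did not overlap in either kind of RNA, in opposite order. Nuclei of the IGF2BP3 knockout also lay below every control, at 212 and 217 CPM. The log2 change was -0.58 ± 0.08 in nuclei (adjusted p = 1.05e-07) and 0.30 in total RNA (adjusted p = 0.000349), and the difference of -0.89 had an adjusted p of 1.97e-25. ANKRD36B, a gene with near-identical relatives whose reads could be exchanged, went from 9.41 to 12.5 CPM in control to 6.64 and 5.86 CPM in knockout nuclei. In total RNA it went from 10.1 to 11.6 CPM to 16.0 and 13.6 CPM, a called difference of -1.36 between the changes. Its level in IGF2BP3 knockout nuclei was 3.83 and 4.11 CPM.

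Architectural and other nuclear noncoding RNAs did not share a direction in knockout nuclei, and were called at shares near those of all genes. Of 28 listed, 23 were tested, 7 of them nuclear-enriched. In knockout nuclei 6 were higher (26.1%) and 7 lower (30.4%), against 27.5% and 27.6% of all genes, with a median of -0.07. In total RNA 12 were higher and 3 lower, with a median of 0.33. The difference was negative and called for 13 and positive for none. Without control 4 the nuclear count was 8 in place of 13.

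NEAT1, the scaffold RNA of paraspeckles (chromosome 11, 65422774 to 65445540, plus strand), rose in both kinds of RNA and less in nuclei. Its control ratio of 0.68 put it outside the nuclear-enriched set. Control nuclei held 173, 202, 253 and 222 CPM and knockout nuclei 404 and 367 CPM, a log2 change of 0.69 ± 0.09 (adjusted p = 1.26e-08). In total RNA the control range was 150 to 206 CPM and the knockout libraries had 564 and 549 CPM, a change of 1.56. The groups did not overlap in either, and the difference of -0.87 ± 0.08 had an adjusted p of 5.12e-23. Nuclei of the IGF2BP3 knockout held more NEAT1, 702 and 796 CPM. GABPB1-AS1, a noncoding RNA antisense to the gene of a transcription factor subunit, behaved alike, with 53.9, 61.5, 84.4 and 76.6 CPM in control and 154 and 128 CPM in knockout nuclei, a change of 0.80 against 1.71 in total RNA.

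MALAT1, an abundant RNA of nuclear speckles (chromosome 11, 65497688 to 65506516, plus strand), was nuclear-enriched with a control ratio of 2.05. It had 89.6, 128, 106 and 115 CPM in control nuclei and 124 and 118 CPM in knockout nuclei, and the groups overlapped. The log2 change of 0.13 ± 0.08 was not called (adjusted p = 0.171), but was called at 0.27 without knockout 2 (adjusted p = 0.0176). In total RNA its level was 84.4 to 99.6 CPM in control and 170 and 167 CPM in knockout libraries, without overlap, a change of 0.87 (adjusted p = 1.28e-09). The difference of -0.74 had an adjusted p of 1.25e-15. Nuclei of the IGF2BP3 knockout held 202 and 239 CPM, above every control.

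KCNQ1OT1, the long antisense RNA of an imprinted domain (chromosome 11, 2608328 to 2699994, minus strand), fell in both. It had 25.4, 33.9, 20.5 and 17.9 CPM in control nuclei and 5.87 and 6.42 CPM in knockout nuclei. No knockout library reached the lowest control, and the log2 change of -1.66 ± 0.14 (adjusted p = 2.21e-12) was larger in size than the change of -0.72 in total RNA. The sense gene KCNQ1 overlaps it, and whether reads were counted by strand is not given in the sources used here. HCG18 and HELLPAR, chosen after their values were seen, fell in nuclei and not in total RNA. HCG18 had 53.3 to 56.7 CPM in control and 42.4 and 37.9 CPM in knockout nuclei, a change of -0.46. It rose by 0.42 in total RNA, with a called difference of -0.89, and had 28.7 and 34.5 CPM in IGF2BP3 knockout nuclei. HELLPAR, nuclear-enriched, had 18.6 to 22.2 CPM in control and 12.5 and 11.4 CPM in knockout nuclei, a change of -0.72 (adjusted p = 6.94e-06), with 0.15 in total RNA (adjusted p = 0.208) and a called difference of -0.88.

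By gene class, nuclear-enriched long noncoding RNAs resembled nuclear-enriched mRNAs. Of 437 long noncoding RNAs tested, 38 were higher and 165 lower in knockout nuclei (median -0.44), and of 432 tested in total RNA 138 were higher and 45 lower (median 0.23). Of 1011 protein-coding RNAs, 158 were higher and 516 lower (median -0.38), and in total RNA 358 and 236 (median 0.09). Among 25 nuclear-enriched small nucleolar RNAs, which guide the modification of ribosomal RNA, 23 were lower and none higher, with a median of -1.39. Of the 23 of them tested in total RNA, 8 were lower and none higher. These short RNAs lie inside introns of host genes and have no poly(A) tail of their own, so reads of unspliced hosts cannot be told apart from reads of the small RNAs.

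Host transcripts of microRNAs moved both ways, and that of the miR-17-92 cluster fell more in nuclei than in total RNA. A host gene is transcribed into a long primary RNA from which Drosha cuts the microRNA hairpins in the nucleus. Of 23 hosts tested, 7 were higher (30.4%) and 10 lower (43.5%) in knockout nuclei with a median of -0.25. In total RNA 10 were higher and 6 lower with a median of 0.56. The 17 nuclear calls became 11 without a batch term and 10 by DESeq2. The difference was negative and called for 11 hosts and positive for none.

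The microRNAs encoded by the 3 hosts that fell most are printed because the host transcript, not the mature product, is what poly(A) libraries measure; mature microRNAs were not measured. They are RefSeq sequences on GRCh38.p14, 5′ to 3′, with the seed (bases 2 to 8, the stretch that pairs with targets) in capitals. MIR17HG on chromosome 13 encodes the miR-17-92 cluster, with a seed shared by miR-17-5p and miR-20a-5p and another by miR-19a-3p and miR-19b-3p.
hsa-miR-17-5p: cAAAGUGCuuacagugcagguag
hsa-miR-20a-5p: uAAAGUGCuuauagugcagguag
hsa-miR-18a-5p: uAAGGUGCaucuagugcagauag
hsa-miR-19a-3p: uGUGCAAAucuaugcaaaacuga
hsa-miR-19b-3p: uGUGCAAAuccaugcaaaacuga
hsa-miR-92a-3p: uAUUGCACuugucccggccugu
hsa-miR-503-5p: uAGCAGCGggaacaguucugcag
hsa-miR-424-5p: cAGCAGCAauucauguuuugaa
hsa-miR-210-3p: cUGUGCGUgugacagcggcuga
The first pair shares AAAGUGC and the miR-19 pair GUGCAAA. The mature miR-17-5p lies at 91350618 to 91350640 and miR-92a-3p at 91351361 to 91351382, both on the plus strand within MIR17HG. miR-503-5p lies within MIR503HG on chromosome X, miR-424-5p within 1000 bases of it, and miR-210-3p within MIR210HG on chromosome 11.

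MIR17HG (chromosome 13, 91347820 to 91354579, plus strand; control ratio 1.63) had 32.1, 51.4, 67.8 and 58.0 CPM in control nuclei and 26.3 and 23.5 CPM in knockout nuclei. Both knockout libraries lay below all controls, and the distance to the same-batch controls 3 and 4 was larger than to controls 1 and 2. The log2 change was -1.34 ± 0.09 (adjusted p = 4.05e-15) against -0.73 in total RNA, a difference of -0.62 (adjusted p = 1.09e-06). In total RNA the groups overlapped, with 18.6, 22.0, 41.7 and 36.3 CPM in control and 24.3 and 22.7 CPM in knockout libraries. Nuclei of the IGF2BP3 knockout had 52.1 and 52.6 CPM, close to the controls of the same batches.

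MIR503HG (chromosome X, 134543337 to 134546632, minus strand; control ratio 3.13) had 30.5, 33.6, 58.2 and 51.0 CPM in control and 20 and 21.2 CPM in knockout nuclei. The groups did not overlap, the log2 change was -1.40 ± 0.09 (adjusted p = 2.95e-15), and in total RNA it was -0.84. The difference of -0.57 (adjusted p = 5.48e-05) was not called without control 4 (0.0507) or knockout 1 (0.0573). MIR210HG (chromosome 11, 565660 to 568457, minus strand), the host of a microRNA known for its induction in hypoxia, had 4.02, 4.05, 6.53 and 6.25 CPM in control and 1.82 and 2.43 CPM in knockout nuclei. Its change was -1.54 ± 0.20 in nuclei (adjusted p = 3.50e-08) and -0.54 in total RNA, and the difference of -1.01 (adjusted p = 0.00407) was not called without control 3 (0.0653) or knockout 2 (0.0784). The IGF2BP3 knockout differed here, with 12.1 and 11 CPM, above every control.

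MIRLET7A1HG, host of let-7 microRNAs and chosen after its values were seen, changed in the nuclear test alone. It had 9.41, 14.9, 20.7 and 18.1 CPM in control nuclei and 11.2 and 10.5 CPM in knockout nuclei. The knockout libraries overlapped control 1 and lay below the controls of their own batches. The log2 change was -0.83 ± 0.12 (adjusted p = 1.50e-07), that in total RNA -0.06 (adjusted p = 0.726), and the difference of -0.78 had an adjusted p of 4.42e-05. Hosts also rose, among them MIR924HG, with 4.93 to 7.42 CPM in control and 19.6 and 20 CPM in knockout nuclei, a change of 1.62, and MIR646HG, with 0.322 to 0.86 and 2.93 and 2.91 CPM, a change of 2.71.

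mRNAs listed as carrying detained introns fell in larger part. Of 40 tested, 28 were lower and 5 higher in knockout nuclei with a median of -0.39, and 18 of the 40 were nuclear-enriched. In total RNA 19 were lower and 13 higher with a median of -0.11, and the difference was negative and called for 24 and positive for none. Gene counts do not separate spliced from unspliced transcripts, so the counts say nothing of the intron itself.

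CLK2, a kinase of splicing factors, had 194, 207, 275 and 244 CPM in control nuclei and 127 in both knockout libraries. The groups did not overlap, and the log2 change was -1.03 ± 0.08 (adjusted p = 1.40e-13) against -0.61 in total RNA. MAT2A, the enzyme that makes the methyl donor S-adenosylmethionine and chosen after its values were seen, had 500 to 588 CPM in control and 284 and 273 CPM in knockout nuclei, a change of -1.01 against -0.35. IGF2BP3 knockout nuclei were alike for MAT2A, at 270 and 281 CPM. TAF1D, a subunit of the RNA polymerase I selectivity factor whose introns host small nucleolar RNAs, had 175 to 224 CPM and 86.8 and 82.9 CPM, and its change of -1.37 was close to the -1.18 of total RNA.

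For PABPN1, SRSF11 and PNISR, chosen after their values were seen, the test in total RNA gave no call. PABPN1, the nuclear poly(A)-binding protein, had 51.7, 59.0, 85.2 and 71.7 CPM in control and 51.9 and 47.5 CPM in knockout nuclei. The knockout libraries overlapped control 1 and lay below controls 2 to 4, and the log2 change was -0.66 ± 0.08 (adjusted p = 2.18e-08). The change in total RNA was 0.03 (adjusted p = 0.744), and the difference of -0.69 had an adjusted p of 1.15e-10. SRSF11, a splicing factor, changed by -0.69 in nuclei and -0.10 in total RNA (adjusted p = 0.116), and PNISR, a serine-arginine-rich protein, by -0.52 and 0.04 (adjusted p = 0.541). Knockout nuclei overlapped controls of batches 1 and 2 for both, with SRSF11 at 635 and 539 CPM against 552 to 985 CPM and PNISR at 358 and 275 CPM against 252 to 467 CPM. CCNL2, a cyclin of splicing kinases, was higher in total RNA by 0.26 and lower in nuclei by 0.44, and its 449 and 459 CPM in knockout nuclei lay within the control range of 380 to 669 CPM.

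LUC7L2, a component linked to U1 snRNP, was the member of the list with the largest rise. Its nuclear level was 94.7, 93.5, 83.8 and 86.9 CPM in control and 256 and 231 CPM in knockout libraries, far apart, with a log2 change of 1.51 ± 0.08 (adjusted p = 4.62e-18) and 1.56 in total RNA. The IGF2BP3 knockout had 83.4 and 89.1 CPM. LUC7L3, its relative, went the other way, with 439, 606, 892 and 843 CPM in control and 463 and 371 CPM in knockout nuclei, a change of -1.06 with overlap at control 1, and 802 and 844 CPM in the IGF2BP3 knockout. CLK1, another kinase of splicing factors, rose from 51.7 to 91.1 CPM to 127 and 115 CPM, a change of 0.41 against 0.79 in total RNA.

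Immediate-early genes rose together. These genes of transcription factors and feedback phosphatases are switched on within minutes of growth factor or stress signals, partly through serum response factor, which binds the CArG box, and through CREB and ATF factors, which bind the cAMP response element. Of 39 tested, 33 were higher and 1 lower in knockout nuclei, with a median log2 change of 1.38 (1.35 within batch 3 and 1.34 within batch 4). Total RNA gave 33 higher and 2 lower with a median of 1.07, and the difference was called for 3 of 39, so here nuclear and total RNA showed the same picture. Only FOS of this list was nuclear-enriched.

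EGR1, a zinc-finger transcription factor (chromosome 5, 138465490 to 138469315, plus strand), stood at 28.4, 31.3, 17.2 and 14.9 CPM in control nuclei and at 262 and 246 CPM in knockout nuclei. The log2 change was 3.98 ± 0.09 (adjusted p = 2.69e-29), and 4.23 in total RNA. Nuclei of the IGF2BP3 knockout had 91.7 and 95.1 CPM, between the groups, and the change in the IGF2BP2 knockout exceeded theirs by 1.44 (adjusted p = 9.47e-18). FOS, a subunit of the AP-1 factor (chromosome 14, 75278774 to 75282230, plus strand), had 9.01, 10.5, 7.86 and 6.57 CPM in control and 96.1 and 98.3 CPM in knockout nuclei, a change of 3.75 ± 0.11 (adjusted p = 1.44e-26). The groups were far apart, and the change was smaller than the 4.34 of total RNA by 0.60 (adjusted p = 0.00482), a difference not called without control 3 (0.282) or knockout 2 (0.0664).

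A stretch before the EGR1 start is shown because EGR1 is the member of the list with the largest nuclear change. Its promoter also holds CArG boxes, a textbook route of its induction. The piece is chr5:138465344-138465435, plus strand, GRCh38.p14 from RefSeq, with 2 CArG boxes in capitals. They begin 105 and 83 bases before the start used in the promoter search, which differs from the GENCODE 29 gene start given above. The SRF gene itself, at chr6:43171209-43171268 on the plus strand, was the other member with CArG boxes in the window, 2 of them, beginning 30 and 10 bases before the start.
EGR1: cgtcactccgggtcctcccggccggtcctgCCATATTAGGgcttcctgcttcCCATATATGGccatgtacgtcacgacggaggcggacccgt
SRF: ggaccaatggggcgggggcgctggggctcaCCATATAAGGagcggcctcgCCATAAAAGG
Both strands of the 250 bases before the start were searched for the CArG box and for TGACGTCA, the full cAMP response element; the letters of these motifs cannot overlap each other. The CArG box was in 312 of 27305 promoters (1.14%) and in 2 of the 29 list members that matched a promoter. TGACGTCA was in 482 promoters (1.77%) and in those of DUSP1 and JUND. No peaks or methylation were analysed here, and a match is a description of the letters.

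ATF3, a stress-induced repressor, had 37.4, 32.1, 32.6 and 34.3 CPM in control and 239 and 223 CPM in knockout nuclei, a log2 change of 2.79 ± 0.09. FOSB had 4.19 to 5.26 CPM and 35.1 and 37.6 CPM, a change of 2.81. JUND, the AP-1 subunit, had 39.8, 36.8, 40.8 and 44.7 CPM and 159 and 164 CPM, a change of 1.92. None of these overlapped between the groups; they were chosen after their values were seen, as were JUN, JUNB, DUSP1, IER2, KLF4 and GADD45A. For JUND the nuclear change exceeded the change in total RNA by 0.55 (adjusted p = 1.81e-07). JUN rose by 1.35, JUNB by 1.62, IER2 by 1.66, KLF4 by 1.80 and the phosphatase gene DUSP1 by 1.45, and GADD45A, a growth arrest gene, by 2.36. DUSP2, another phosphatase gene, was the only member to fall, by 0.71 on the log2 scale (adjusted p = 0.00583), a call lost without control 3 (adjusted p = 0.0574), control 4 (0.0504) or knockout 1 (0.101).

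**Figure D5:**
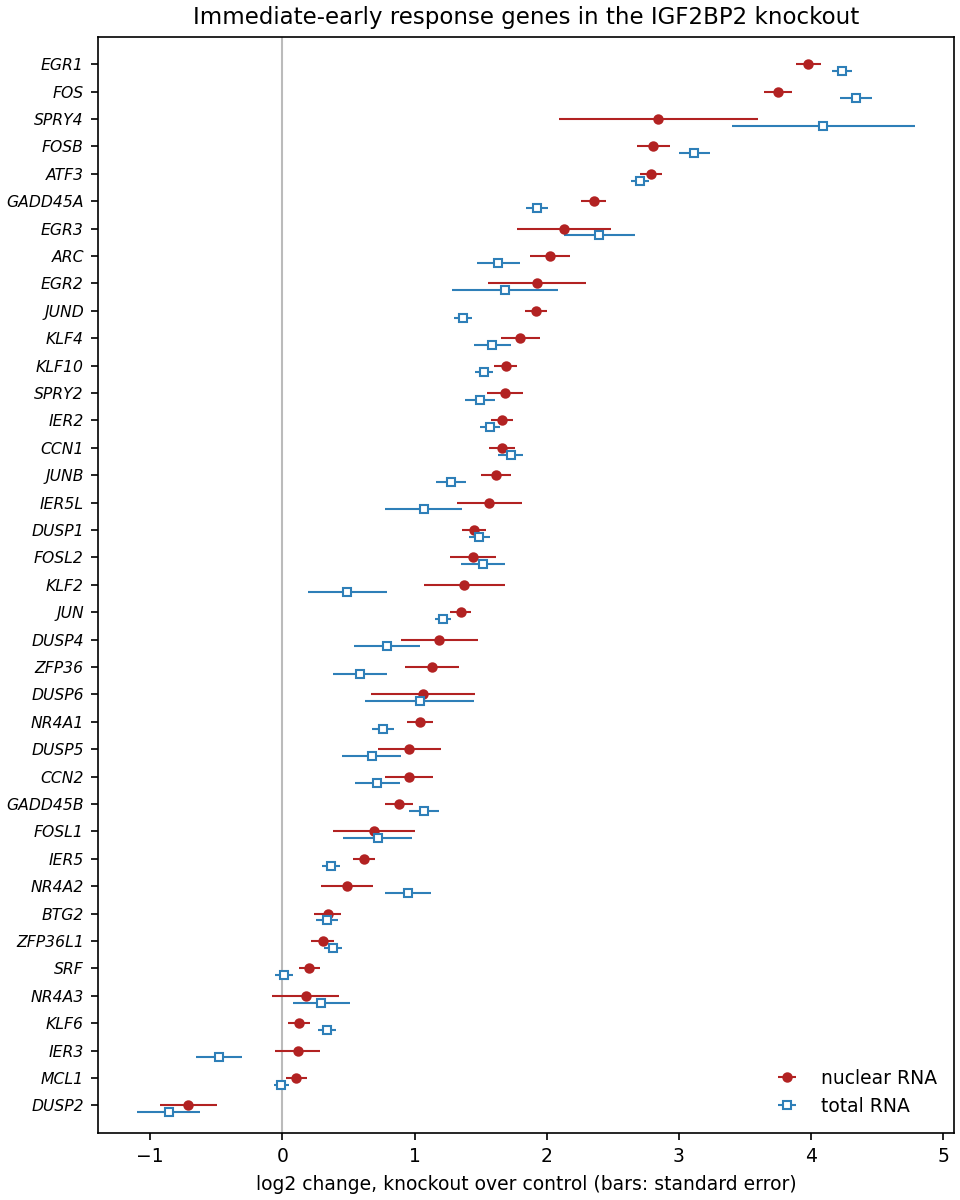
Log2 change of knockout over control (x axis, bars show the standard error) for the 39 immediate-early genes tested, in nuclear RNA (filled points) and total RNA (open squares). EGR1 and FOS lead at 3.98 and 3.75 in nuclear RNA, and DUSP2 lies on the left at -0.71.

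Abundant cytoplasmic mRNAs fell less in the nucleus than in total RNA. Of 26 markers of glycolysis, cytoskeleton and other general functions, 14 were lower and 4 higher in knockout nuclei with a median of -0.36, and 23 were lower and none higher in total RNA with a median of -0.80. The difference was positive and called for 25 of 26. LDHA, lactate dehydrogenase, changed by -1.35 in nuclei and -1.81 in total RNA, with knockout nuclei at 368 and 355 CPM and the lowest control at 899 CPM. ACTB, cytoplasmic actin, changed by -0.60 and -1.09. PGK1, a glycolytic enzyme, changed by -0.86 and -1.24. All 3 fell in both kinds of RNA; ACTB was chosen after its values were seen.

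RNAs of secreted and membrane proteins, which are translated on endoplasmic reticulum that can stay attached to nuclei, had no common direction. Of 50, 16 were higher (32%) and 23 lower (46%), with a median of -0.11. FN1, fibronectin, was nuclear-enriched and rose from 61.1, 56.3, 58.8 and 53.0 CPM to 171 and 175 CPM, a log2 change of 1.63 (adjusted p = 5.19e-19). LAMB2, a laminin chain, rose from 144, 144, 181 and 159 CPM to 332 and 366 CPM, a change of 1.04. Neither overlapped between the groups. Of 13 mitochondrially encoded mRNAs, 7 were lower and none higher (median -0.21), and 4 without control 4. MT-ND6 fell furthest, by 1.61 on the log2 scale, a call that limma on FPKM values did not make.

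Components of nuclear RNA decay and export fell more often than they rose. Of 42 tested, 26 were lower and 5 higher with a median of -0.29, and total RNA gave the same counts with a median of -0.32. THOC2, the largest subunit of the THO export complex, had 373, 397, 384 and 397 CPM in control and 168 and 144 CPM in knockout nuclei, far below, with a log2 change of -1.33 ± 0.09 (adjusted p = 1.21e-15). ALYREF, an export adaptor, had 258, 231, 199 and 200 CPM and 108 and 112 CPM, a change of -0.86 against -1.27 in total RNA. EXOSC6, an exosome subunit, rose by 0.61. Of 25 identifiers of paraspeckle proteins 16 were lower and 2 higher with a median of -0.30, and 10 in place of 18 were called without control 4; HNRNPH3 rose by 0.56, while NEAT1, the RNA of these bodies, rose as given above.

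Of 23 genes of the N6-methyladenosine pathway, 11 were lower (47.8%) and 5 higher (21.7%) in nuclei (median -0.13). FMR1, a reader, had 153, 181, 185 and 186 CPM in control and 83.1 and 74.1 CPM in knockout nuclei, a log2 change of -1.24. HNRNPA2B1, a nuclear reader, changed by -0.76, VIRMA, a subunit of the writer complex, by -0.76, and YTHDF2, a cytoplasmic reader, by 0.55. mRNAs described as IGF2BP targets leaned upward in nuclei, with 16 of 36 higher (44.4%), 10 lower (27.8%) and a median of 0.18. They leaned downward in total RNA, with 11 higher, 16 lower and a median of -0.09. The difference was positive and called for 10 and negative for 2. The median over all genes was 0.01 in nuclear and 0.02 in total RNA. Genes with a control nuclear over cytoplasmic ratio of -1 to -0.5 had medians of 0.14 and -0.08. Their difference was positive and called for 681 of 2149 and negative for 7. The lean was thus not particular to the listed targets.

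Innate sensing and interferon genes were called in both directions, at shares near those of all genes. Of 58 tested, 20 were higher (34.5%) and 17 lower (29.3%), against 27.5% and 27.6% of all genes, with a median of 0.07. Without control 3, 24 in place of 37 were called. IKBKE, a kinase of antiviral signalling, had 10.7, 11.3, 12.3 and 9.80 CPM in control and 1.61 and 1.17 CPM in knockout nuclei, a log2 change of -3.03 ± 0.20 (adjusted p = 2.45e-15). IFIT3 and BST2, interferon-induced genes, had 0.387 to 0.793 and 0.51 to 0.983 CPM in control and 1.68 and 1.65, and 3.84 and 3.52 CPM in knockout nuclei, changes of 1.80 and 1.91. Against nuclei of the IGF2BP3 knockout, 31 of the 58 were lower and 8 higher. IRF7, the interferon regulatory factor, had 138 counts over the 4 control nuclei and 2 over the knockout nuclei, a ratio of 33.1-fold lower with a 95% counting interval of 8.98 to 276.

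Among all genes the largest changes included genes that were nearly silent in a group. KRTAP19-1, a hair keratin-associated protein, went from 0.963, 1.15, 1.92 and 1.35 CPM to 152 and 167 CPM, a log2 change of 6.58 ± 0.14 (adjusted p = 9.80e-31), and was at 23.4 and 19.9 CPM in the IGF2BP3 knockout. KLHDC7B, KRTAP19-3 and ELSPBP1 had 1 count each over the 4 control nuclei and 266, 189 and 117 over the knockout nuclei, ratios of 555-fold (98.8 to 22000), 394-fold (69.9 to 15700) and 244-fold (43.0 to 9720) with 95% counting intervals. KLHDC9 had 2 counts and 154, a ratio of 161-fold (43.7 to 1340). Intervals of this kind cover counting error only.

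CTSF, the lysosomal protease cathepsin F and a nuclear-enriched RNA (chromosome 11, 66563463 to 66568841, minus strand), was nearly lost. It had 31.8, 29.4, 34.1 and 32.6 CPM in control nuclei and 0.349 and 0.217 CPM in knockout nuclei, a log2 change of -6.92 ± 0.20 (adjusted p = 4.19e-26). Total RNA gave -8.22, and the IGF2BP3 knockout had 65.5 and 61.0 CPM, above every control. SNX19, a sorting nexin, had 494 and 2 counts, 118-fold lower (32.6 to 980), and GALC, a lysosomal galactosidase, had 144 and 2, 34.5-fold lower (9.38 to 288). LINC01687 was at 0 in both knockout nuclei, at least 12.8-fold lower with a floor of 3 counts per library.

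The nuclear-enriched RNAs named for the largest changes all had a change of the same sign in total RNA. That change was called for all but a Y_RNA identifier. The Y_RNA, a short noncoding RNA with many near-identical copies, changed by -2.18 in nuclei (adjusted p = 7.36e-05) and by -0.33 in total RNA (adjusted p = 0.44). DNAH17, a dynein heavy chain, rose from 0.387 to 0.623 CPM to 10.5 and 10.3 CPM, a log2 change of 4.44 against 4.19 in total RNA, and RAPGEF3, a cAMP-activated exchange factor, from 1.53, 2.01, 4.47 and 3.93 CPM to 47.0 and 52.3 CPM, 3.55 against 3.95. NAPRT, an enzyme of NAD synthesis, fell from 54.5, 56.4, 67.4 and 61.1 CPM to 6.71 and 8.72 CPM, -3.02 against -3.08. TEX15, a germ-line gene, fell from 60.1 to 78.5 CPM to 14.3 and 11.9 CPM, -2.52 against -2.11. NAALAD2, a peptidase, fell by 3.27 on the log2 scale. The difference between nuclear and total change was not called for DNAH17 (adjusted p = 0.755), RAPGEF3 (0.116) or NAPRT (0.832), and was -0.42 for TEX15, a call lost without control 3 (0.0833) or knockout 2 (0.405).

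The IGF2BP3 knockout gave another clone in the same batches. Its nuclear libraries held 32058 and 34109 CPM of mitochondrially encoded mRNA, against 15914 and 16825 CPM in IGF2BP2 knockout nuclei. All 13 of these mRNAs were called lower in the IGF2BP2 knockout. Listed mRNAs of secreted and membrane proteins summed to 14223 and 14807 CPM, against 10819 and 11066 CPM. The part of the preparations in the differences between the knockouts was not tested. Between the knockouts 5010 genes were higher in IGF2BP2 knockout nuclei (27.1%) and 5026 lower (27.2%); the control libraries enter the estimate of its error. Of the nuclear-enriched RNAs 286 were higher and 579 lower than in the IGF2BP3 knockout. In the nuclear change minus the total change the clones differed for 118 of 19007 genes (0.621%), of which 27 were nuclear-enriched RNAs, all lower in the IGF2BP2 knockout. Both knockouts are compared with the same controls, so their changes against control share those libraries. Immediate-early genes were higher in the IGF2BP2 knockout for 22 of 39 and lower for 4, and IGF2, a secreted growth factor whose mRNA gave the family its name and which was chosen after its values were seen, had 0.967 to 1.47 CPM in control nuclei, 3.63 and 3.95 CPM in the IGF2BP2 knockout and 7.86 and 8.36 CPM in the IGF2BP3 knockout.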

How the data were processed

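Poly(A) RNA was sequenced with the Illumina stranded mRNA kit on a NovaSeq as paired reads, per the labels. The authors deposited raw read counts per gene, made with STAR and featureCounts on GRCh38 per the submitters' processing notes, which also name DESeq2 1.44.0; whether reads were counted by strand is not given in the sources used here. They also deposited FPKM values, used here only in alternatives. The 62703 identifiers included 20403 without a symbol, with 0.483 to 0.687% of each library's counts. Positions and classes came from GENCODE 29 by identifier.

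Counts were fitted with edgeR 4.0.16 in R 4.3.3 (TMM, default filter on low counts, quasi-likelihood test, Benjamini-Hochberg adjustment over all tested genes) on the control, IGF2BP2 knockout and IGF2BP3 knockout libraries with terms for knockout and labelled batch. Batch numbers in the labels pair the samples. The 2 residual degrees of freedom all come from batches 3 and 4, and the biological coefficient of variation was 5.45% in nuclear RNA. The nuclear change minus the total change was an interaction in 12 libraries of batches 3 and 4. On simulated counts the nuclear fit recovered 75% of 1.5-fold and 93% of 2-fold changes with 5 false calls among 15419 genes. The interaction fit recovered 54% and 79% with 11 false calls among 15649 genes. The simulation had 100 changed genes of each size, the same spread for every gene, no batch effect and no low-count genes. In the data 55.1% of genes were called, so these figures do not measure recovery or false calls there.

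CPM are counts scaled to a common library size with TMM. Low ratios have exact 95% intervals, and a count of 0 was set to a floor of 3 counts. The 14 gene lists, the members and the rule for named genes were chosen with earlier results of these data known. Named were IGF2BP1 to IGF2BP3, MALAT1 and NEAT1; the genes of largest nuclear change among all genes and among nuclear-enriched RNAs; those of largest difference between nuclear and total change; up to 3 rising and 3 falling per list; and those that differed most from the IGF2BP3 knockout, 108 in all, with a mean of at least 1 CPM outside the lists. Alternatives used RLE or upper-quartile scaling, DESeq2 1.42.0, limma 3.58.1 on log2(FPKM + 1) and log2(FPKM + 0.1) with a mean FPKM of at least 0.1, other filters, no batch term, other sets of libraries and each library left out.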

Additional observations from a re-analysis of the deposited data

Results flagged for a closer look

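In 7 of 108 named genes a control nuclear library stood apart from the other 3, by a gap above Dixon's 95% critical value for the share of the control range; chance gives about 1 in 20. The gap was 1 of the range for KLHDC7B and KRTAP19-3 (control 3) and ELSPBP1 (control 4), in each of which a single count was the only one, 0.922 for SNORD62B (control 4), 0.986 for FTL (control 1), 0.846 for GDF6 (control 2) and 0.84 for FMR1 (control 1).

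The nuclear change differed from the change in total RNA, by the test of that difference, in named genes that total RNA did not call or called the other way. More upward in the nucleus were TECRP1 (by 1.53 on the log2 scale), RARA-AS1 (1.42), AMHR2 (1.31), TCAF2 (1.29), GDF6 (1.29), RPS2P17 (0.812), METRNL (0.806) and JOSD2 (0.786). More downward were MICE (-2.16), BMS1P4 (-1.97), SNORD62B (-1.94), ZNF252P-AS1 (-1.93), Y_RNA (-1.91), LINC01359 (-1.65), HMGN2P15 (-1.53) and ANKRD36B (-1.36). Reads of the pseudogenes, antisense and short RNAs among them can be exchanged with relatives or overlapping genes. The difference stayed called without each control of batches 3 and 4 and each knockout library in turn for RPS2P17, METRNL, MICE and ANKRD36B of these 16. For the Y_RNA it had an adjusted p of 0.141 without control 3, 0.0791 without control 4, 0.0502 without knockout 1 and 0.26 without knockout 2. METRNL, a secreted hormone-like protein, had 14.1, 11.1, 11.4 and 10.1 CPM in control nuclei and 14.3 and 15.6 CPM in knockout nuclei, and 10.8 to 15.5 CPM and 8.54 and 9.53 CPM in total RNA.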

How the results depend on the processing

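No called value changed sign under any alternative run. For 108 named genes, 1580 of 1669 values in nuclear RNA kept their direction and side of the threshold. Another 88 lost the call and 1, MALAT1, gained it. All 108 genes kept theirs without control 1, without control 2 and with the IGF2BP1 knockout libraries. Batches 1 and 2 held no IGF2BP2 knockout, so these alternatives could hardly move the fold changes. Of 178 values of the 16 named nuclear minus total changes, 129 kept the call and 49 lost it. With limma on log2(FPKM + 1) and log2(FPKM + 0.1), 4997 and 5083 genes were called in nuclear RNA, 6413 and 6535 in total RNA, and 4848 and 4837 between the knockouts; of nuclear-enriched RNAs 530 and 538, with 442 and 446 lower; of microRNA hosts 7 and 7, and of nuclear noncoding RNAs 6 and 6. DESeq2 called 1257 genes in the nuclear minus total change, 279 of them nuclear-enriched and lower, 6638 between the knockouts, and 10 microRNA hosts; it gave no adjusted p for 14 of the named differences, which are not counted. With the IGF2BP1 knockout libraries edgeR called 0 genes in the nuclear minus total change and 0 lower nuclear-enriched RNAs (688 of 1851 were lower at an unadjusted p under 0.05). At a control ratio of at least 2, 344 nuclear-enriched RNAs were called. Without the batch term (no replicate block) 11 microRNA hosts were called, and 9712 genes in nuclear and 10402 in total RNA; the block changed no other count by over 1.5 times. Leaving out each library gave 7109 to 10180 genes in nuclear RNA, 7829 to 11088 in total RNA, 2295 to 3740 in the nuclear minus total change, 8306 to 10047 between the knockouts, 780 to 1089 nuclear-enriched RNAs (603 to 875 lower, 503 to 562 lower in the nuclear minus total change), 27 to 33 detained-intron mRNAs, 28 to 34 immediate-early genes, 12 to 17 microRNA hosts and 8 to 13 nuclear noncoding RNAs. The cause of these moves was not tested. The control nuclear to cytoplasmic comparison could not be refitted without a library, as no residual degrees of freedom remain. Genes of a few counts per library limit the low end.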

Other observations

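In nuclear RNA 65 of 385 genes with a called nuclear minus total change of at least 1 in size on the log2 scale moved more upward in the nucleus and 320 more downward. RIGI, a sensor of viral RNA chosen after its values were seen, is 1 of the genes at low level whose nuclear and total changes pointed apart. Its nuclear change was -1.22 (adjusted p = 0.036) and its change in total RNA 0.93 (adjusted p = 0.11), with a difference of -2.20 (adjusted p = 0.019).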
